A study of Mus musculus with 16 samples.

Results

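E2F transcription factors and the pocket proteins of the RB family were followed across hematopoietic stem cells (HSCs) sorted by MAC-1, the integrin whose alpha chain CD11b is encoded by *Itgam*. The group was made up of the 10 genes named *E2f1*, *E2f2*, *E2f3*, *E2f4*, *E2f6*, *E2f7*, *E2f8*, *Rb1*, *Rbl1* and *Rbl2* among the 46078 genes of the count table, each found on 1 line. All 10 had enough counts to be tested. All samples came from WT mice of the B6.SJL strain and were LSK SLAM HSCs, that is lineage-negative, cKit+, Sca1+, CD48- and CD150+ marrow cells. Steady-state (SS) HSCs, labelled untreated, were MAC-1- (n = 3) or MAC-1low (n = 3). The 4 week HSCs were MAC-1- (n = 3), MAC-1low (n = 4) or MAC-1+ (n = 3) and had been isolated 4 weeks after 8000 LSK cells were transplanted into recipients irradiated with 900 cGy. The labels give neither the age of the mice nor how many mice stand behind a sample, so that the p-values measure the spread between these samples only.

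In the textbook account of the cell cycle, activating E2Fs (*E2f1*, *E2f2*, *E2f3*) pair with a DP protein such as that of *Tfdp1* and switch on genes for DNA replication. In resting cells E2Fs are held by the pocket proteins RB (*Rb1*), p107 (*Rbl1*) and p130 (*Rbl2*), which cyclin D and its kinases CDK4 and CDK6 release. E2F4 works mostly with p107 and p130 in the DREAM complex, E2F6 represses with a Polycomb complex and without pocket proteins, and the atypical E2F7 and E2F8, themselves products of E2F target genes, repress E2F targets late in the cell cycle without a DP partner. HSCs are mostly quiescent and enter the cell cycle when the marrow regenerates, which makes these genes of interest across steady state and transplantation.

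Promoters are shown for *E2f8* and *Tfdp1*, which were called in a comparison below, and for *Rbl1* and *E2f2*, which were without overlap between 4 week and SS MAC-1- HSCs. The sequences come from RefSeq (GRCm38.p6), run from 250 bases before to 50 bases after the gene start, and read 5′ to 3′ on the strand of the gene. Capitals mark matches, on either strand, to the E2F motif in the 4 spellings TTTCCCGC, TTTGGCGC, TTTCGCGC and TTTGCCGC, or to the cell cycle homology region (CHR) TTTGAA, the element bound by DREAM in late cell cycle genes.
E2f8, chr7:48881547-48881846, minus strand: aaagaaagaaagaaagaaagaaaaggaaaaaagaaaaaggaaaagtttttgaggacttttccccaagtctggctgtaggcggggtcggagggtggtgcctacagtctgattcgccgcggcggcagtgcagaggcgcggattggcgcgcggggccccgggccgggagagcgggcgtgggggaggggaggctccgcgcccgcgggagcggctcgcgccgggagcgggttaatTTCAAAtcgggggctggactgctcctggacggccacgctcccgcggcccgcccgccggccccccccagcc
Rbl1, chr2:157204485-157204784, minus strand: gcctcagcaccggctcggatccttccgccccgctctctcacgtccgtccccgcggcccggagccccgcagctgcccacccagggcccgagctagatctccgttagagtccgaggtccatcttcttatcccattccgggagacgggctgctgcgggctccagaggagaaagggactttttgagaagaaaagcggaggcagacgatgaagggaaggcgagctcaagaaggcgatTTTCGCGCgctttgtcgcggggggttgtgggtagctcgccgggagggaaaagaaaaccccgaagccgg
E2f2, chr4:136172024-136172323, plus strand: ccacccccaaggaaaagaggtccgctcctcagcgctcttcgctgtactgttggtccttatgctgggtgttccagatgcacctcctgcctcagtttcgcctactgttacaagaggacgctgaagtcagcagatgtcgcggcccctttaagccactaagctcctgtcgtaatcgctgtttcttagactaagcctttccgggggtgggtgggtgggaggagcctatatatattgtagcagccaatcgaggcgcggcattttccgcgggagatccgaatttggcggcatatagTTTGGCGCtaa
Tfdp1, chr8:13338501-13338800, plus strand: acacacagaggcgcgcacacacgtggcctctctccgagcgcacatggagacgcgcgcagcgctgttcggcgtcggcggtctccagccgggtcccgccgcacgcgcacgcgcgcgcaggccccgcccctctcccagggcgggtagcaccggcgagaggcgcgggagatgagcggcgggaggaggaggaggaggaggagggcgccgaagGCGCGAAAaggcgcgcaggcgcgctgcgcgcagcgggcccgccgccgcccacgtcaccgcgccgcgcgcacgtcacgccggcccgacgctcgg

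RefSeq promoters were found for 8 of the 10 members, and *Rb1* and *E2f4* had none in the table. The *E2f8* window held a CHR on the reverse strand from position -20 to -15 and no match to the E2F spellings. In *Rbl1* an E2F match lay from -18 to -11, and in *Tfdp1*, the DP partner, a reverse one lay from -43 to -36. One of the 2 *E2f2* starts held an E2F match from 40 to 47. Of all 32851 promoters of this length, 2.26% held 1 of the 4 E2F spellings and 17.9% the CHR. Among the members 4 of 8 genes held an E2F match (*E2f2*, *E2f3*, *E2f7*, *Rbl1*) and 4 of 8 a CHR (*E2f2*, *E2f3*, *E2f8*, *Rbl2*). A gene with several starts was counted as holding a motif if any start did. The windows of *E2f1* and *E2f6* held neither. That of *E2f1* (chr2:154569377-154569676, minus strand) lies inside the gene as annotated in GENCODE, which starts at 154569892. The bases before that start were not searched, so the window cannot say whether they hold a match. An E2F match was present in 9 of 26 G1/S target genes of E2F with a promoter, and a CHR in 10 of 15 G2/M genes of the DREAM complex. These are matches of letters and not measured binding sites.

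Levels between genes were compared per kilobase of exons. Averaged over the 16 samples, *Rbl1* (13.4 CPM per kb, where CPM are counts scaled to a common library size), *Rb1* (9.19 CPM per kb), *E2f6* (7.37 CPM per kb) and *Rbl2* (6.27 CPM per kb) had the highest levels of the group. *E2f8* (5.11 CPM per kb), *E2f4* (4.28 CPM per kb) and *E2f3* (4.09 CPM per kb) followed, and the lowest were *E2f1* (1.73 CPM per kb), *E2f7* (0.981 CPM per kb) and *E2f2* (0.523 CPM per kb). Thus, among the 10 members, the 3 pocket protein genes were above all E2F genes except *E2f6*, and 2 of the 3 activators stood among the 3 lowest genes. *E2f5*, an E2F gene outside the members, had 15.2 CPM per kb and was above all of them. Scaled by the longest transcript in place of all exons, the order was the same except that *E2f6* (13.8 CPM per kb) came before *Rb1* (11.9 CPM per kb). In 7 of the 10 members every sample had more than 3 counts, while *E2f1*, *E2f2* and *E2f7* were at or under 3 counts in 1, 7 and 2 of 16 samples.

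**Figure D1:**
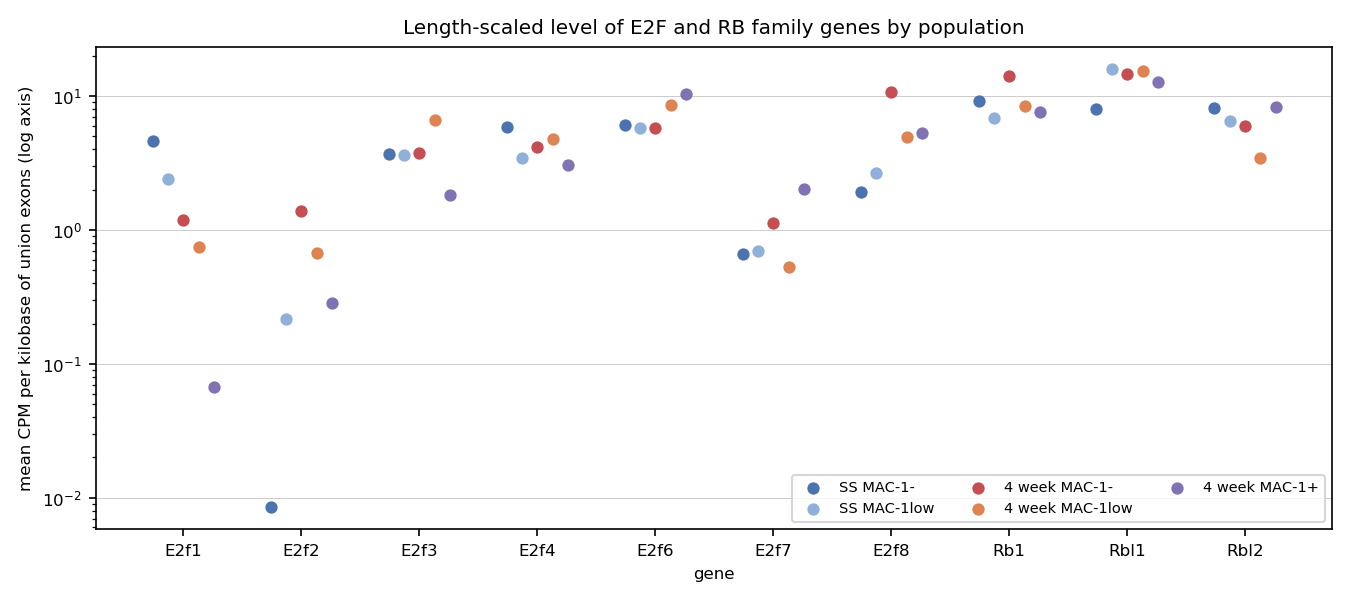
Mean level of each gene in the 5 HSC populations in CPM per kilobase of exons on a log axis, 1 point per population without error bars. Averaged over all samples, the pocket protein genes are among the 4 highest. In 4 week MAC-1low HSCs, however, *Rbl2* (3.44 CPM per kb) is below *E2f3* (6.67 CPM per kb), *E2f8* (4.97 CPM per kb) and *E2f4* (4.77 CPM per kb). The population mean varies by 1.80-fold in *E2f6*, 1.91-fold in *E2f4*, 2.00-fold in *Rbl1*, 2.07-fold in *Rb1* and 2.39-fold in *Rbl2*. That of *E2f1* varies by 68.6-fold, and *E2f2* is near 0 in SS MAC-1- HSCs.

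Depth and sorted identity were checked before the members were compared. Total counts ran from 13781278 to 28580658 per sample (median 18817813), and 3 counts, the most that a count of 0 allows, equal 0.112 to 0.220 CPM by counting error alone. *Itgam* was highest in 4 week MAC-1+ HSCs (3.80, 8.31 and 30.0 CPM) and at 0 to 1.78 CPM in MAC-1- HSCs, with 1 MAC-1low sample at 4.36 CPM. HSC identity markers summed to 1531 to 1763 CPM in SS MAC-1-, 1540 to 1996 CPM in SS MAC-1low, 691 to 892 CPM in 4 week MAC-1-, 1486 to 2090 CPM in 4 week MAC-1low and 2280 to 3466 CPM in 4 week MAC-1+ HSCs. All 9 of these markers were detected in every sample but 1, where 1 marker was at 0.

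The activator *E2f1* (chromosome 2, 154559407 to 154569892, minus strand, GRCm38) had its lowest values in 4 week MAC-1+ HSCs. These samples had 0.380, 0.251 and 0 CPM, from 8, 4 and 0 counts. SS MAC-1- samples had 7.92, 34.7 and 0.615 CPM, SS MAC-1low samples 9.03, 12.9 and 0.877 CPM, 4 week MAC-1- samples 2.26, 5.38 and 3.50 CPM, and 4 week MAC-1low samples 2.51, 2.07, 3.96 and 0.899 CPM. All 3 MAC-1+ samples thus lay below the 13 others, and within each SS population the samples spread widely, with replicate 3 far below the others. The gap is small in counts, with 12 in SS MAC-1- replicate 3, 17 in SS MAC-1low replicate 3 and 24 in 4 week MAC-1low replicate 4. Against 4 week MAC-1- HSCs the log2 fold change was -4.11 (SE 1.73), which missed the threshold of an adjusted p of 0.1 (edgeR quasi-likelihood test, adjusted p = 0.31). Against SS MAC-1- HSCs it was -6.07 (SE 1.89, adjusted p = 0.156) and against SS MAC-1low HSCs -5.14 (SE 1.81, adjusted p = 0.272).

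The make-up of the libraries differed between populations, and its part in the *E2f1* values was not tested. Its longest transcript has 58.3% GC and 2755 bases. Genes with a GC content over 55% took 6.45 to 8.91% of the counts in 4 week MAC-1+, 6.69 to 9.29% in 4 week MAC-1low, 7.48 to 8.94% in 4 week MAC-1-, 10.7 to 11.4% in SS MAC-1low and 9.05 to 10.2% in SS MAC-1- samples. This share overlapped among the 3 populations at 4 weeks. Transcripts under 1500 bases took 28.1 to 29.7% of the counts in 4 week MAC-1+, 29.2 to 32.5% in 4 week MAC-1low and 31.6 to 34.9% in the 3 other populations. With an offset for GC content and length in each sample the log2 fold change of *E2f1* in 4 week MAC-1+ against MAC-1- HSCs was -4.05 (adjusted p = 0.348). In these bulk samples fewer cells with *E2f1* RNA and less of it per cell cannot be told apart.

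*E2f2* (chromosome 4, 136172394 to 136196057, plus strand), the activator with the lowest level, had at most 1 count in 5 of 6 samples at steady state. SS MAC-1- samples had 1, 0 and 1 counts and SS MAC-1low samples 1, 0 and 60 counts. In 4 week MAC-1- HSCs it had 105, 304 and 36 counts (6.59, 11.5 and 2.17 CPM). The 4 week MAC-1- samples were therefore all above SS MAC-1- HSCs. Among 4 week MAC-1low samples 3 had 2.94 to 7.07 CPM and 1 had 1 count, and 4 week MAC-1+ samples had 1.23, 0.188 and 2.77 CPM. The comparison of 4 week with SS MAC-1- HSCs did not pass (adjusted p = 0.377), nor did that of 4 week MAC-1low with SS MAC-1- HSCs (adjusted p = 0.398). Since SS MAC-1- HSCs had at most 1 count per sample, no fold is given.

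*E2f3* (chromosome 13, 29906575 to 29986063, minus strand), the activator with the highest level per kb, was detected everywhere. Its values were 15.2, 33.8 and 11.5 CPM in SS MAC-1-, 4.17, 31.5 and 23.4 CPM in SS MAC-1low and 22.8, 27.8 and 10.5 CPM in 4 week MAC-1- HSCs. They were 45.7, 54.2, 37.4 and 7.42 CPM in 4 week MAC-1low and 8.74, 5.97 and 15.03 CPM in 4 week MAC-1+ HSCs. Although 3 of the 4 MAC-1low samples were above all other samples, the fourth was among the lowest, and MAC-1+ against MAC-1low HSCs at 4 weeks gave a log2 fold change of -1.87 (SE 0.83, adjusted p = 0.718).

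The repressor *E2f4* (chromosome 8, 105297663 to 105305370, plus strand) had population means from 7.49 CPM in 4 week MAC-1+ to 14.3 ± 8.94 CPM (SD, n = 3) in SS MAC-1- HSCs. Its 4 week MAC-1- samples had 9.90 to 10.4 CPM and all lay above the MAC-1+ samples at 5.78 to 8.58 CPM. *E2f6* (chromosome 12, 16810963 to 16839742, plus strand), the Polycomb-linked member, ranged from 12.6 to 100.1 CPM over single samples and from 32.4 to 58.4 CPM over population means, and every pair of neighbouring populations overlapped. Neither gene had an unadjusted p under 0.05 in any comparison.

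Among the atypical E2Fs, *E2f8* rose after transplantation in MAC-1- HSCs. *E2f8* (chromosome 7, 48866429 to 48881596, minus strand) had 9.68, 9.17 and 12.7 CPM in SS MAC-1- and 13.2, 20.2 and 9.95 CPM in SS MAC-1low HSCs. At 4 weeks it had 64.6, 47.8 and 63.0 CPM in MAC-1-, 23.2, 34.0, 28.4 and 22.7 CPM in MAC-1low and 21.6, 45.0 and 20.1 CPM in MAC-1+ HSCs. The 3 MAC-1- samples at 4 weeks were above all other samples, and 5 of the 6 SS samples were below all 10 samples at 4 weeks, the exception being the SS MAC-1low sample at 20.2 CPM beside a MAC-1+ sample at 20.1 CPM. The log2 fold change of 4 week over SS MAC-1- HSCs was 2.47 (SE 0.54, adjusted p = 0.0927), a 5.56-fold difference, and it was the only 1 of the 10 members called in that comparison, against 0.432% of all 13661 genes tested. *E2f8* was also the only member called in a joint F test of the 5 populations (adjusted p = 0.0918, 2.22% of genes called), a call that was lost in each of the 16 fits without 1 sample and in every alternative other than DESeq2.

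Further comparisons of *E2f8* did not pass. Over SS MAC-1low HSCs the 4 week MAC-1- HSCs were higher by a log2 fold change of 2.02 (SE 0.53, adjusted p = 0.173). Over SS MAC-1- HSCs the 4 week MAC-1low HSCs had a log2 fold change of 1.36 (SE 0.49, adjusted p = 0.372) and the 4 week MAC-1+ HSCs of 1.46 (SE 0.52, adjusted p = 0.221). Within 4 week HSCs, MAC-1low against MAC-1- gave -1.11 (SE 0.47, adjusted p = 0.617) and MAC-1+ against MAC-1- gave -1.02 (SE 0.51, adjusted p = 0.41). The MAC-1low minus MAC-1- difference, positive at SS and negative at 4 weeks, gave an interaction of -1.57 (SE 0.69, adjusted p = 0.534).

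The call of *E2f8* stood close to the threshold. It was lost when any of 15 of the 16 samples was left out (adjusted p from 0.102 to 0.302) and held without 4 week MAC-1+ replicate 2 (adjusted p = 0.093), while the log2 fold change stayed between 2.38 and 2.63. It was also lost in 6 of 9 alternatives (limma-voom, no filter, a stricter filter, the replicate block without and with a GC and length offset, and only the populations compared), with adjusted p up to 0.507 and log2 fold changes from 2.37 to 2.48. The exons of *E2f8* overlap those of *Gm2788* on the other strand (1 to 1130 counts). No source used here says whether the counting used strand, so reads of such a pair may have been split between its genes.

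Markers of another cell type, the megakaryocyte, were like *E2f8* highest in 4 week MAC-1- HSCs. Unlike *E2f8*, their mean sum in 4 week MAC-1low and MAC-1+ HSCs was below that of SS MAC-1- HSCs. Megakaryocyte markers summed to 4251 to 6744 CPM in 4 week MAC-1- HSCs, with all 6 detected in each sample, against 595 to 1097 CPM in SS MAC-1-, 322 to 668 CPM in SS MAC-1low, 346 to 868 CPM in 4 week MAC-1low and 156 to 198 CPM in 4 week MAC-1+ HSCs. All 6 had a higher fitted level in 4 week than in SS MAC-1- HSCs and 1 of them was called, beside 0.432% of all genes. It was *Pf4*, the platelet factor, which is named here after its values were seen (edgeR adjusted p = 0.00678). The part of these markers in the *E2f8* result was not tested.

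*E2f7* (chromosome 10, 110745439 to 110787384, plus strand), the other atypical E2F, differed from *E2f8* in the order of its populations. Pearson's r of log2 CPM between the 2 genes was 0.437 over the 16 samples. SS MAC-1- samples had 0, 1 and 348 counts (0, 0.0524 and 17.8 CPM), SS MAC-1low samples 11.7, 1.79 and 5.21 CPM and 4 week MAC-1- samples 17.4, 5.69 and 7.61 CPM. The 4 week MAC-1low samples had 5.76, 3.03, 1.85 and 8.43 CPM and the MAC-1+ samples 10.8, 7.22 and 36.9 CPM. SS MAC-1- HSCs thus held both the lowest values and 1 of the highest, and SS MAC-1- replicate 3 decided the comparison with 4 week MAC-1+ HSCs. With that sample the log2 fold change was 1.62 (SE 1.71, adjusted p = 0.767), and without it 9.04 (adjusted p = 0.0514), a value that rests on SS samples with 0 and 1 counts. The MAC-1+ sample at 36.9 CPM, replicate 3, stood apart by its neutrophil markers (7255 CPM summed), and without it the log2 fold change was 0.57 (adjusted p = 0.962).

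**Figure D2:**
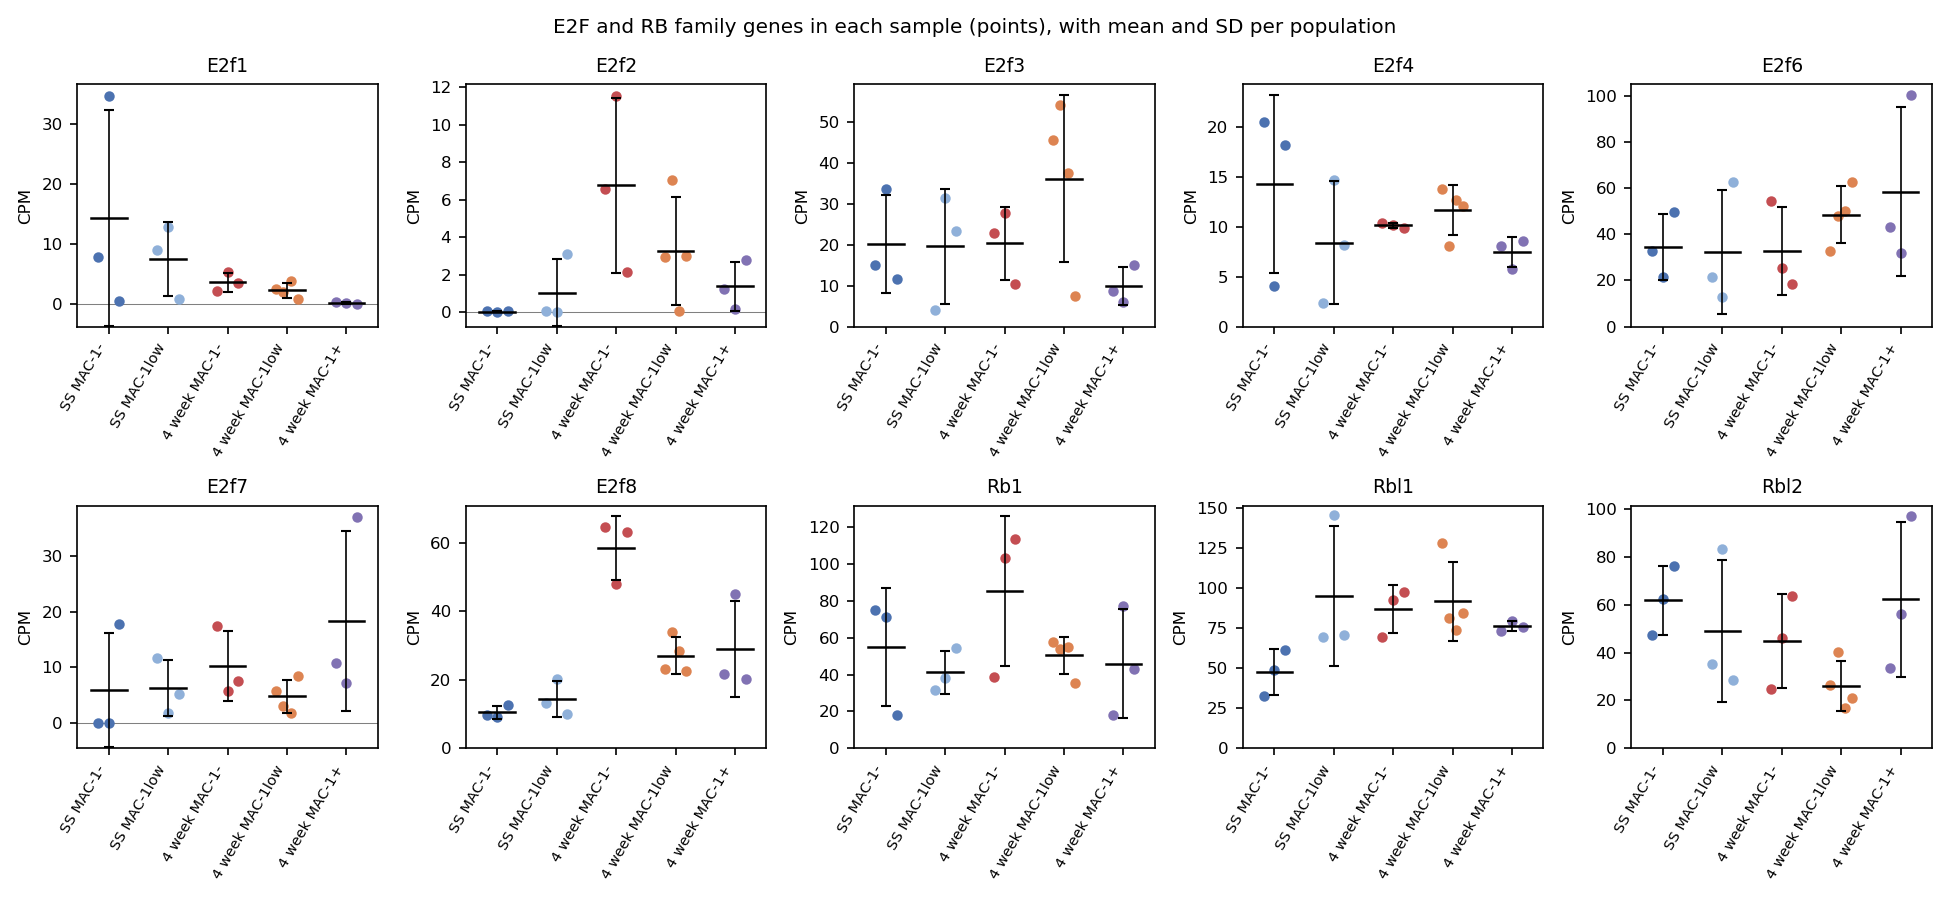
CPM of the 10 genes in each of the 16 samples (points), with the mean (bar) and SD (error bars) of each HSC population, every panel on its own linear scale. *E2f8* stands highest in 4 week MAC-1- HSCs (47.8 to 64.6 CPM), *E2f1* lowest in 4 week MAC-1+ HSCs (0 to 0.380 CPM) and *Rbl1* lowest in SS MAC-1- HSCs (32.6 to 61.3 CPM).

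Of the pocket proteins, *Rbl1* (chromosome 2, 157145893 to 157204534, minus strand), encoding p107 and itself known as an E2F target, was lowest in SS MAC-1- HSCs. These had 32.6, 49.2 and 61.3 CPM, below each of the 13 other samples. SS MAC-1low samples had 69.6, 146 and 70.7 CPM, 4 week MAC-1- samples 69.7, 92.9 and 97.8 CPM, 4 week MAC-1low samples 128.5, 81.4, 73.6 and 84.3 CPM and 4 week MAC-1+ samples 73.3, 79.6 and 76.0 CPM. Apart from SS MAC-1- the populations overlapped. The log2 fold change over SS MAC-1- HSCs was 1.00 (SE 0.37, adjusted p = 0.513) in SS MAC-1low, 0.86 (SE 0.37, adjusted p = 0.441) in 4 week MAC-1- and 0.95 (SE 0.35, adjusted p = 0.372) in 4 week MAC-1low HSCs, none of which passed. These comparisons share the 3 SS MAC-1- samples.

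*Rbl2* (chromosome 8, 91070057 to 91123844, plus strand) encodes p130, the pocket protein most associated with resting cells. It had 47.4, 62.2 and 76.2 CPM in SS MAC-1-, 35.3, 83.2 and 28.6 CPM in SS MAC-1low and 24.7, 46.0 and 63.7 CPM in 4 week MAC-1- HSCs. In 4 week MAC-1low HSCs it had 26.2, 40.4, 16.7 and 20.8 CPM, all below SS MAC-1- HSCs, and in 4 week MAC-1+ HSCs 33.4, 56.0 and 97.2 CPM. Against SS MAC-1- HSCs the 4 week MAC-1low HSCs gave a log2 fold change of -1.25 (SE 0.51, adjusted p = 0.409), and 4 week MAC-1+ over MAC-1low HSCs gave 1.26 (SE 0.51, adjusted p = 0.69). The latter was 0.79 (adjusted p = 0.82) without MAC-1+ replicate 3, the sample with 97.2 CPM and the highest neutrophil markers. *Rbl2* shares exons with *Aktip* on the other strand (26 to 1774 counts).

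*Rb1* (chromosome 14, 73183673 to 73325822, minus strand), the retinoblastoma gene, varied widely within its populations. It had 38.8, 104 and 114 CPM in 4 week MAC-1- HSCs, where its mean was highest (85.4 ± 40.7 CPM, SD, n = 3), and 17.8 to 77.0 CPM in the other 13 samples. No comparison had an unadjusted p under 0.05. Exons of *Rb1* overlap those of *Rcbtb2* and *Lpar6* on the other strand (1116 to 2897 and 406 to 5037 counts).

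Ordered by mean level, the 5 populations gave 40 neighbouring pairs over the members. With edgeR 0 of them were called (adjusted p from 0.41 to 1), and samples overlapped in 36 of the pairs. The order was taken from the same samples, so that small steps and overlap between neighbours are partly built in. Such pairs were not counted over all genes. In single comparisons of 2 populations 0 to 3.25% of all genes were called, and 8.23 to 21.7% were without overlap. The 4 pairs without overlap were the steps from 4 week MAC-1low to MAC-1+ in *E2f1*, from 4 week MAC-1- to MAC-1+ and from 4 week MAC-1low to SS MAC-1low in *E2f8*, and from 4 week MAC-1+ to SS MAC-1- in *Rbl1*. DESeq2 called the step from 4 week MAC-1- to MAC-1+ in *E2f8* (adjusted p = 0.0816), beside 11.6% of all genes in that comparison.

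The counts of members are read beside the share of all genes. No member was called in 4 week MAC-1+ against MAC-1- HSCs (3.25% of genes called), in 4 week MAC-1low against MAC-1- HSCs (0.278%), in 4 week MAC-1+ against MAC-1low HSCs (0%), in SS MAC-1low against MAC-1- HSCs (0.0146%) or in 4 week against SS MAC-1low HSCs (0.0439%). None was called either in 4 week MAC-1+ against SS MAC-1- (2.36%), 4 week MAC-1+ against SS MAC-1low (1.42%), 4 week MAC-1- against SS MAC-1low (0.505%) or 4 week MAC-1low against SS MAC-1- HSCs (0.19%), or in the interaction (0.0586%). At an unadjusted p under 0.05, 1 of 10 members passed in 4 week MAC-1+ against MAC-1- HSCs (13.4% of genes), 3 in 4 week against SS MAC-1- HSCs (10.4%), 1 in SS MAC-1low against MAC-1- HSCs (9.36%) and 1 in the interaction (8.73%). The largest such count was 4 in 4 week MAC-1low against SS MAC-1- HSCs (10.7%), namely *E2f2*, *E2f8*, *Rbl1* and *Rbl2*. There were 2 in 4 week MAC-1+ against MAC-1low (6.85%), 2 in 4 week MAC-1+ against SS MAC-1- (14%), 1 in 4 week MAC-1low against MAC-1- (7.25%), 1 in 4 week MAC-1+ against SS MAC-1low (12.1%), 1 in 4 week MAC-1- against SS MAC-1low (9.93%), 0 in 4 week against SS MAC-1low HSCs (8.89%) and 2 in the joint test (13.8%). The median log2 fold change of the 10 members was -0.67 in 4 week MAC-1+ against MAC-1- HSCs beside 0.07 over all genes, and 0.33 in 4 week against SS MAC-1- HSCs beside -0.03 over all genes.

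Samples without overlap were counted in the same way. In 4 week MAC-1+ against MAC-1- HSCs 3 members were without overlap (*E2f1*, *E2f4*, *E2f8*, all lower in MAC-1+), against 21.7% of all genes. In 4 week against SS MAC-1- HSCs there were 3 (*E2f2*, *E2f8*, *Rbl1*, all higher at 4 weeks, 16.6% of genes), and in 4 week MAC-1+ against SS MAC-1- HSCs 4 (*E2f1* lower and *E2f2*, *E2f8* and *Rbl1* higher at 4 weeks, 17% of genes). That of *E2f2* rests on a MAC-1+ sample with 3 counts beside SS MAC-1- samples with at most 1, a gap within the 3 counts that a count of 0 allows. That of *E2f1* against SS MAC-1- HSCs rests on a MAC-1+ sample with 8 counts beside an SS MAC-1- sample with 12. In 4 week MAC-1low against SS MAC-1- HSCs there were 3 (*E2f8* and *Rbl1* higher and *Rbl2* lower at 4 weeks, 11.1% of genes). The 6 other comparisons had 1 each, which was *E2f8* in 4 week MAC-1low against MAC-1- (10.8%), in 4 week against SS MAC-1low (10.4%) and in 4 week MAC-1- against SS MAC-1low HSCs (17.7%), *E2f1* in 4 week MAC-1+ against MAC-1low (8.23%) and against SS MAC-1low HSCs (16.3%), and *Rbl1* in SS MAC-1low against MAC-1- HSCs (11.3%).

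**Figure D3:**
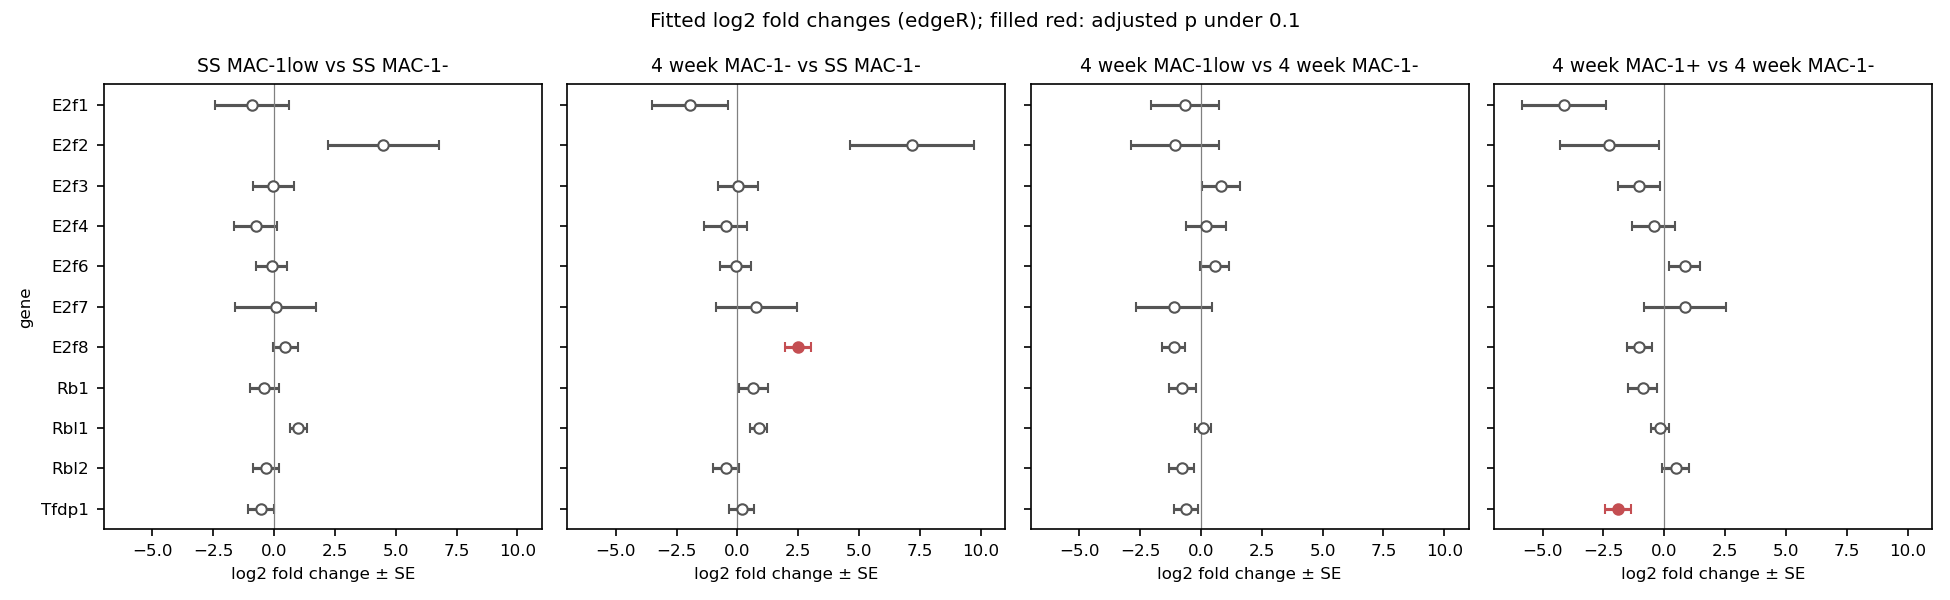
Fitted log2 fold change (x axis) with its SE for the 10 members and *Tfdp1* in 4 comparisons, filled red where the adjusted p was under 0.1. The filled points are *E2f8* in 4 week against SS MAC-1- HSCs (2.47) and *Tfdp1* in 4 week MAC-1+ against MAC-1- HSCs (-1.90).

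DESeq2, the tool used by the study, called more genes and more members at the same threshold. It called *E2f8* and *E2f2* in 4 week against SS MAC-1- HSCs (7.81% of genes), *E2f8* and *E2f1* in 4 week MAC-1+ against MAC-1- HSCs (11.6%) and *E2f8* in 4 week MAC-1low against MAC-1- HSCs (4.03%). *E2f8*, *E2f1* and *E2f2* were called in 4 week MAC-1+ against SS MAC-1- HSCs (12.3%), *E2f8* and *E2f1* against SS MAC-1low HSCs (9.41%), and *E2f8*, *E2f2* and *Rbl1* in 4 week MAC-1low against SS MAC-1- HSCs (8.27%). It also called *Rbl1* in SS MAC-1low against MAC-1- HSCs (6.78%), *E2f8* in 4 week MAC-1- against SS MAC-1low HSCs (6.78%), *E2f8* in the interaction (5.28%), and *E2f8* and *E2f1* in the joint test (13.6%). No member was called in 4 week MAC-1+ against MAC-1low (3.17%) or 4 week against SS MAC-1low HSCs (4.6%). *E2f8* thus had an adjusted p of 4.25e-09 with DESeq2 and of 0.0927 with edgeR in 4 week against SS MAC-1- HSCs, at log2 fold changes of 2.46 and 2.47.

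Partners and regulators of the family were described from lists chosen with earlier results of these data known, in 4 week MAC-1+ against MAC-1- HSCs. *Tfdp1*, which encodes the DP1 partner of the classical E2Fs, was lower in MAC-1+ HSCs. It had 11.9, 21.1 and 19.8 CPM in MAC-1+ and 70.3, 58.1 and 68.7 CPM in MAC-1- samples, without overlap, and the 10 remaining samples had 23.2 to 115 CPM, all above MAC-1+. The log2 fold change was -1.90 (SE 0.54, adjusted p = 0.0965), against 2.06% of all genes called lower. This call was also near the threshold, since it held in 2 of the 16 fits without 1 sample (without SS MAC-1- replicate 2 or replicate 3) and the adjusted p ran from 0.0339 to 0.253. *Tfdp2* and *E2f5*, the other members of that list, were not called.

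Of the 8 RB kinases and cyclins 1 was called, beside 3.25% of all genes. *Cdk6*, a kinase that phosphorylates RB, had 44.5 to 93.8 CPM in 4 week MAC-1+ and 228 to 288 CPM in 4 week MAC-1- HSCs, a log2 fold change of -2.01 (SE 0.33, adjusted p = 0.00564) that stayed called in each fit without 1 sample and in all 9 other settings. The median of the list was -0.86, with 7 of 8 lower. Of the 7 CDK inhibitors, 5 were tested and 0 called (median 0.35). Of the 7 genes of the MuvB core and its partners 0 were called (median -0.04), and of the 9 partners of E2F6 in its Polycomb complex 0 (median 0.12).

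The G1/S targets of E2F were lower in 4 week MAC-1+ than in MAC-1- HSCs in 25 of 31 genes, with a median log2 fold change of -0.80 beside 0.07 over all genes, and 3 of the 31 passed, all lower, beside 2.06% of all genes called lower. These were *Tyms*, thymidylate synthase (log2 fold change -1.90, SE 0.39, adjusted p = 0.0186), *Dut*, dUTPase (-1.18, SE 0.31, adjusted p = 0.0711), and *Mcm3*, a subunit of the replicative helicase (-1.36, SE 0.38, adjusted p = 0.0939). *Tyms* had 67.4 to 88.4 CPM in MAC-1+ and 231 to 319 CPM in MAC-1- samples and was called in every fit without 1 sample, whereas *Dut* was called in 7 and *Mcm3* in 2 of those 16 fits. Markers of other cell types differed in the same comparison. Megakaryocyte markers were lower in MAC-1+ HSCs in 6 of 6 (median log2 fold change -4.35, 3 called) and neutrophil markers were higher in 6 of 6 tested (median 6.27, 2 called). Of 9 HSC identity markers 5 were called higher. Of all genes 3.25% were called in this comparison. Summed neutrophil markers were at 164, 950 and 7255 CPM in the MAC-1+ samples and at 23.1 to 69.7 CPM in the MAC-1- samples. Without MAC-1+ replicate 3, the sample at 7255 CPM, 1 of the 31 G1/S targets was called, *Tyms* (adjusted p = 0.0919). The part of these cell types in the result was not tested. G2/M genes of the DREAM complex were lower in 17 of 18 (median -0.75), with 0 called and 3 at an unadjusted p under 0.05, beside 13.4% of all genes.

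In 4 week against SS MAC-1- HSCs the same lists were higher at 4 weeks. This comparison and that of 4 week MAC-1+ with MAC-1- HSCs share the 3 samples of 4 week MAC-1- HSCs, so that their directions are not independent. G1/S targets were higher in 29 of 31 genes (median 0.89 beside -0.03 over all genes), 14 of them at an unadjusted p under 0.05, beside 10.4% of all genes, and 0 called. G2/M genes were higher in 18 of 18 (median 1.29), 8 of them at an unadjusted p under 0.05 and 0 called, beside 0.432% of all genes called. The proliferation marker *Mki67* had a log2 fold change of 1.10 (SE 0.42, adjusted p = 0.398), with 145 to 346 CPM at 4 weeks and 98.1 to 135 CPM in SS MAC-1- HSCs. In SS MAC-1low against MAC-1- HSCs G2/M genes were higher in 17 of 18 (median 1.25) and G1/S targets in 24 of 31 (median 0.45), beside a median of 0 over all genes. At an unadjusted p under 0.05 there were 7 G2/M genes and 3 G1/S targets, beside 9.36% of all genes. Again 0 were called, in a comparison where 0.0146% of all genes were called.

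Summed over the list, G1/S targets had 3679 to 4204 CPM in 4 week MAC-1- HSCs, the population with the highest *E2f8*. They had 2775 to 2837 CPM in 4 week MAC-1low, 1774 to 2354 CPM in 4 week MAC-1+, 2793 to 3301 CPM in SS MAC-1low and 2003 to 2481 CPM in SS MAC-1- HSCs. The 4 week MAC-1+ samples, with the lowest *E2f1* and *Tfdp1*, thus overlapped SS MAC-1- HSCs in this sum. G2/M genes summed to 1999 to 2157 CPM in 4 week MAC-1-, 1634 to 2006 CPM in 4 week MAC-1low, 1033 to 1516 CPM in 4 week MAC-1+, 1321 to 2543 CPM in SS MAC-1low and 648 to 1035 CPM in SS MAC-1- HSCs, so that the highest sample of all was an SS MAC-1low sample.

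**Figure D4:**
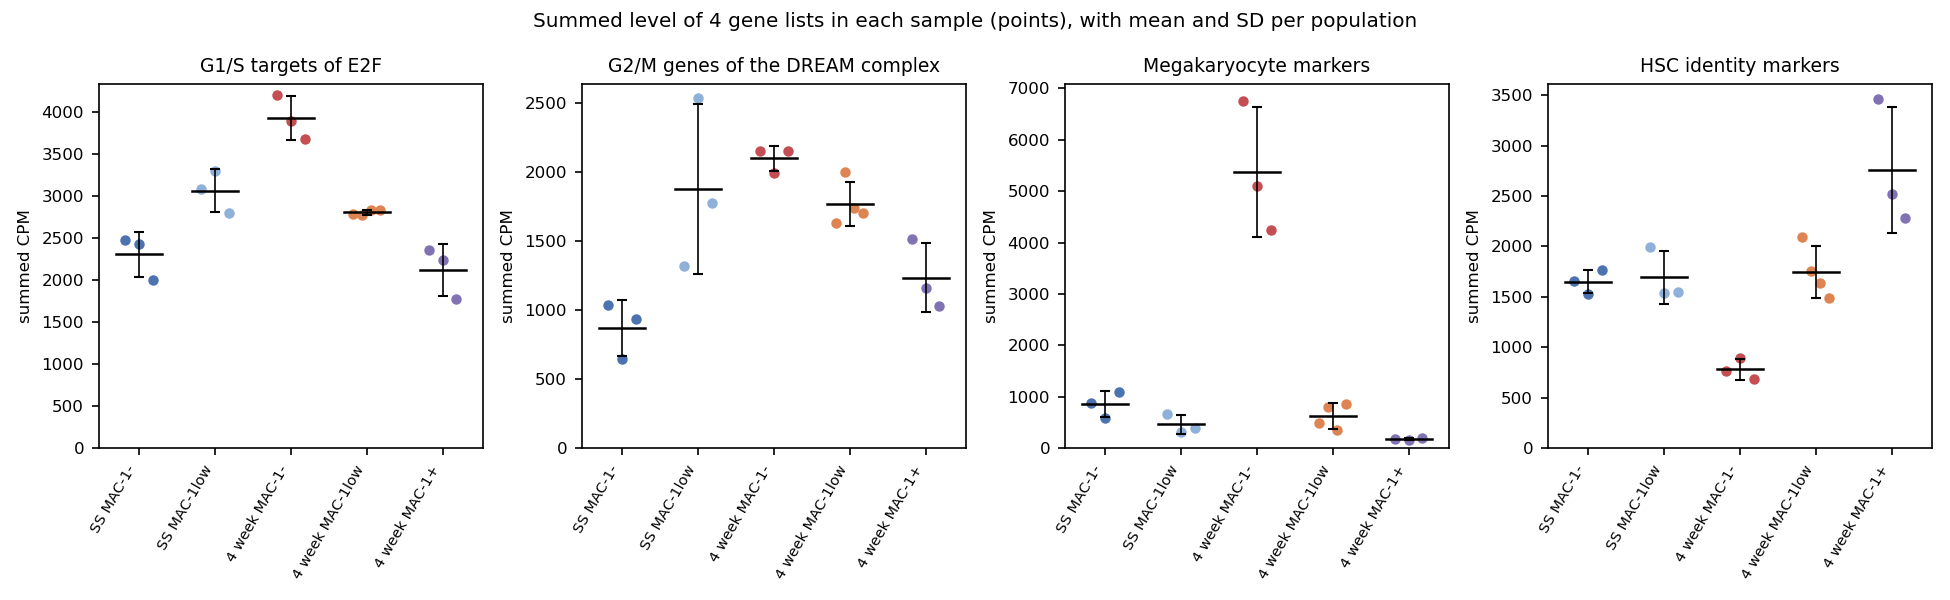
Summed CPM of 31 G1/S targets of E2F, 18 G2/M genes of the DREAM complex, 6 megakaryocyte markers and 9 HSC identity markers in each sample (points), with mean and SD per population, from 0 on a linear axis. In 4 week MAC-1- HSCs the G1/S sum (3679 to 4204 CPM) and the megakaryocyte sum (4251 to 6744 CPM) are highest and the HSC identity sum (691 to 892 CPM) is lowest.

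Across the 16 samples the members did not vary as a block. Pearson's r of log2 CPM between pairs of members ran from -0.744 (*E2f1* and *E2f6*) to 0.54 (*E2f2* and *E2f8*) with a median of 0.02 over 45 pairs. These samples share populations and depth, so that r is given as a description. The genes most like *E2f8* over the 16 samples were *Oxct1* (r = 0.791), *Usp24* (r = 0.772) and *Ezh2* (r = 0.745), those most like *E2f1* were *Wdr83os* (r = 0.886), *Trappc3* (r = 0.86) and *Stra13* (r = 0.859), and those most like *Rbl1* were *Gnpat* (r = 0.796), *Slfn9* (r = 0.794) and *Plcl2* (r = 0.787). The nearest gene had r of 0.828 for *E2f2* (*Gm17473*), 0.837 for *E2f3* (*B4gat1*), 0.843 for *E2f4* (*Plec*), 0.827 for *E2f6* (*Stam*), 0.91 for *E2f7* (*B3gntl1*), 0.817 for *Rb1* (*Mef2d*) and 0.798 for *Rbl2* (*Pdlim7*).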

How the data were processed

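The data set holds bulk RNA-seq of 16 samples from 5 HSC populations. The authors deposited counts per gene that are whole and not normalized, from SMART-Seq v4 and Nextera XT libraries run through an nf-core pipeline with STAR as aligner. No source used here names the counting program, its strand setting, the genome build or the gene models. The libraries carry no molecular identifiers, so PCR copies count as reads, and whole-transcript reads favour long genes.

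Samples were grouped by their labels, and each column of the table matched 1 sample. Of the 46078 genes, 98.2% of identifiers were found in GENCODE M21 (GRCm38), used for places and lengths. R 4.3.3 and edgeR 4.0.16 were used (TMM factors, default filter on low counts, robust quasi-likelihood test). A single model with 5 population means was fitted to the 16 samples and 13661 genes. Adjusted p are Benjamini-Hochberg values over these genes, called under 0.1. CPM include the TMM factors, SE is the log2 fold change over the square root of F, and correlations took log2 CPM with 2 as prior count.

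Alternatives were DESeq2 1.42.0, limma-voom (limma 3.58.1) with sample weights, DESeq2 size factors, no and a stricter filter, only the populations compared, the replicate number as a block, a GC and length offset (added after seeing the data) and leaving out each sample. The fits were tested on simulated data.

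Named were the 10 members, *E2f5*, *Tfdp1*, *Tfdp2*, *Mki67* and *Itgam*, up to 6 called genes of each of 7 pathway lists by adjusted p, and the 3 genes most correlated with each member, among genes with a mean of at least 50 counts. Members and lists were chosen with earlier results of these data known. Marker lists of other cell types were summed per sample as a description.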

Additional observations from a re-analysis of the deposited data

How the results depend on the processing

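The log2 fold changes recomputed for named genes had the same sign in every alternative and in each fit without 1 sample. With DESeq2 the number of members called was 2 in 4 week MAC-1+ against MAC-1- (11.6% of all genes called), 1 in 4 week MAC-1low against MAC-1- (4.03%), 1 in SS MAC-1low against MAC-1- (6.78%) and 2 in 4 week against SS MAC-1- HSCs (7.81%). It was 3 in 4 week MAC-1+ against SS MAC-1- (12.3%), 2 in 4 week MAC-1+ against SS MAC-1low (9.41%), 1 in 4 week MAC-1- against SS MAC-1low (6.78%) and 3 in 4 week MAC-1low against SS MAC-1- HSCs (8.27%). There were 1 in the interaction (5.28%) and 2 in the joint test (13.6%). In 4 week MAC-1+ against MAC-1- HSCs DESeq2 called 1 of 7 MuvB genes, 1 of 9 partners of E2F6, 8 of 31 G1/S targets and 2 of 18 G2/M genes, beside 11.6% of all genes. With limma-voom 0 members were called in 4 week against SS MAC-1- HSCs (0.608% of all genes called), 1 in 4 week MAC-1- against SS MAC-1low HSCs (1.9%) and 0 in the joint test (2.78%). In 4 week MAC-1+ against MAC-1- HSCs it called 7 G1/S targets and 2 G2/M genes, beside 6.34% of all genes. *E2f8* in 4 week against SS MAC-1- HSCs fell to 0 calls without a filter, with the stricter filter, with the replicate block, with block and GC and length offset together, and with only the populations compared, over adjusted p from 4.25e-09 to 0.507 in the 9 alternatives. The joint test fell to 0 with DESeq2 size factors, both filters, the block, the GC and length offset, and the 2 together. The call of *Tfdp1* fell to 0 in these 6 settings and with only the populations compared. In 4 week MAC-1+ against MAC-1- HSCs, G1/S targets called were 1 with block and offset together (1.81% of all genes called) and 1 with only the populations compared. G2/M genes called were 1 without a filter (1.09%), 1 with the stricter filter (3.73%) and 1 with only the populations compared. Samples of the same replicate number had r of deviations from -0.025 to 0.04 over 30 pairs. This cannot decide whether they share mice or a sort day, which no source used here states. At 4 weeks the samples numbered 1 had 9.15 to 9.62% mitochondrial counts and the others 6.56 to 8.43%. Besides the calls of *E2f8*, *Tfdp1* and the joint test, the block ended those of *Mcm3* in 4 week MAC-1+ against MAC-1- HSCs and of *Rnf2* in 4 week MAC-1+ against SS MAC-1low HSCs. Leaving out 1 sample gave 0 to 1 members in 4 week against SS MAC-1- HSCs and in 4 week MAC-1+ against SS MAC-1- HSCs, and 0 in the joint test. For 4 week MAC-1+ against MAC-1- HSCs it gave 0 to 1 partners, 1 to 3 G1/S targets and 0 to 2 G2/M genes. The cause was not tested. With a common biological coefficient of variation of 1.13 and 3 or 4 samples per population, a member at low level with samples near 0 has a wide error, which bounds what *E2f1*, *E2f2* and *E2f7* can show. With a prior count of 0.5 in place of 2, 23 of the 30 most correlated genes were shared.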

Other observations

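Marker lists of other cell types, of which that of neutrophils was also used above, gave these summed levels. Neutrophil markers had 164, 950 and 7255 CPM in 4 week MAC-1+ samples and 23.1 to 168 CPM in all other samples, and the sample with 7255 CPM alone had all 7 of them detected. The *E2f7* level was highest in the sample with 7255 CPM (36.9 CPM), as was that of *E2f6* (100.1 CPM) and *Rbl2* (97.2 CPM), and the part of neutrophil RNA in these values was not tested. The sort stained for GR1, a granulocyte antigen, among the lineage markers that LSK cells lack, and whether neutrophils remained after it was not tested. T/NK cell markers had 16 to 176 CPM in 4 week MAC-1+ and 164 to 644 CPM in the other populations. Erythroid markers had 83.4 to 178 CPM in 4 week MAC-1+ and 20.8 to 76.3 CPM elsewhere, monocyte/macrophage markers 346 to 762 CPM and B cell markers 6.4 to 156 CPM over all samples.

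The Polycomb partner *Rnf2*, an E3 ligase for histone H2A, was higher in 4 week MAC-1+ (130 to 257 CPM) than in SS MAC-1low HSCs (53.9 to 84.4 CPM), with a log2 fold change of 1.36 (SE 0.32, edgeR adjusted p = 0.0813). It was called in 6 of the 16 fits without 1 sample, and adjusted p ran from 0.0768 to 0.231. The second DP partner *Tfdp2* had 24.4 to 69.7 CPM in SS MAC-1- and 68.1 to 131 CPM in 4 week MAC-1low HSCs (log2 fold change 1.38, SE 0.40, adjusted p = 0.266), and *E2f5*, which was no member, had 3.86 to 68.4 CPM over single samples without a comparison at an unadjusted p under 0.05.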
